A study of Mus musculus with 2 samples.

Results

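The 7 genes described here encode receptor chains through which lymphocytes respond to IL-12, IL-18, IL-1, IL-33 and IL-36. They were *Il12rb1*, *Il12rb2*, *Il18r1*, *Il18rap*, *Il1r1*, *Il1rl1* and *Il1rl2*, taken by symbol from the 48321 genes counted, and all 7 were listed in both libraries. The RNA came from 2 replicates of CD4- mature thymocytes sorted from MHC-II0:CD8ab Tg mice on the C57Bl/6 background. These mice are deficient in I-Aβ, an MHC class II chain, and carry Cd4-Cre. Both copies of the *Cd8* locus lack the coding regions of CD8α and CD8β, and cDNAs of both chains are expressed from the *Rosa26* locus once Cre has removed a stop cassette. Cd4-Cre is active from the double-positive stage on, so that every later αβ lineage of the thymus can carry the transgene, and the paper describes the level of CD8α from *Rosa26* as lower than that of the endogenous gene. The age and labelled sex of the mice and the number of mice per library are not given in the sources used here. The library titles name cells without either co-receptor whereas the cell type field names CD8+ cells, and the population is called here as in the paper's text. By the paper's flow cytometry, only part of these cells had high CD44, and only part of those carried CD122. The paper uses both as surface marks of innate memory-like CD8 T cells, so levels here are averages over a mixed population. There was 1 condition, so the values below are levels and differences between 2 libraries, and no genotypes were compared.

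IL-12 binds a pair of related chains, IL-12Rβ1 and IL-12Rβ2, of which the former is shared with the IL-23 receptor, and the pair signals through TYK2, JAK2 and STAT4. IL-18, IL-1, IL-33 and IL-36 each bind a receptor of the IL-1 family, whose cytoplasmic Toll/IL-1 receptor domain recruits MyD88 and IRAK kinases toward NF-κB. In these receptors a chain that binds the cytokine is joined by an accessory chain, IL-18Rβ (*Il18rap*) for IL-18 and IL-1RAcP (*Il1rap*) for the others. Memory and innate memory-like CD8 T cells are known to produce IFN-γ when IL-12 and IL-18 are given together without antigen.

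Libraries held 16732644 and 16245849 reads on genes, which were 40.6% and 41.2% of the uniquely aligned reads. Levels are given as CPM, the counts divided by this total and scaled to 1000000 reads. A floor of 3 counts was taken as the limit of the depth, equal to 0.179 and 0.185 CPM. The libraries stood apart in sex-linked genes, with 34 and 25266 counts of *Xist* and 2450 and 0 counts of *Ddx3y*, so values are given for each library. These counts show that the libraries did not come from the same mouse. With 1 library of each kind, a difference between the libraries cannot be told apart from a difference of sex. All 12 genes listed as marks of mature αβ T cells were above 3 counts in both libraries, with means from 112 to 780.3 CPM. *Cd8b1* was the highest of these and *Trbc1* the lowest, while *Cd4* had 12 and 27 counts. Reads of *Cd8a* and *Cd8b1* can come from the transgenic cDNAs, so these genes do not check the deletion.

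In the deposited counts, receptor chains of IL-18 led and chains of IL-12 followed. *Il1rl2*, the binding chain of IL-36, came next at 6.82 ± 0.185 CPM (SD, n = 2), beside *Il12rb2* at 8.57 ± 1.38 CPM (SD, n = 2). In each library the Wilson intervals of *Il1rl2* and *Il12rb2* overlapped. The binding chains of IL-1 and IL-33 were the lowest, and only that of IL-33 was close to the limit of the depth. *Il18r1* was found at 117 ± 13.7 CPM (SD, n = 2) and *Il18rap* at 63.6 ± 1.25 CPM (SD, n = 2), against 1.55 ± 0.761 CPM (SD, n = 2) for *Il1r1* and 0.302 ± 0.0795 CPM (SD, n = 2) for *Il1rl1*. Together *Il18r1* and *Il18rap* took 82.4% of the counts on the 7 genes in replicate 1 and 78.7% in replicate 2. More than 3 counts in both libraries were found for 7 of the 7 genes, and at least 10 counts in both for 6 of them, the exception being *Il1rl1*.

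**Figure D1:**
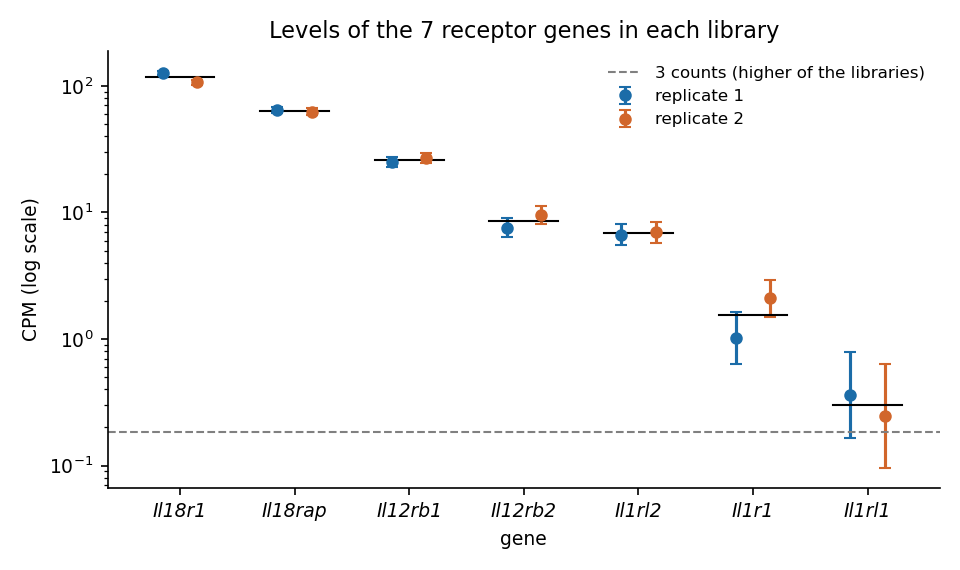
Level of each of the 7 receptor genes in CPM on a log axis, with 1 point per library, Wilson 95% intervals for counting error and a horizontal bar at the mean. The points span from 0.246 CPM for *Il1rl1* in replicate 2 to 126 CPM for *Il18r1* in replicate 1, and the intervals of *Il1rl1* reach under the dashed line at 3 counts.

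Of the 7 genes, 5 lie in the same orientation within 327 kb of chromosome 1 (GRCm38, 40225080 to 40551705, plus strand), in the order *Il1r1*, *Il1rl2*, *Il1rl1*, *Il18r1* and *Il18rap*. Their positions are shown because neighbouring members of this cluster differed most in level. *Il1rl1* ends at 40465415 and *Il18r1* starts at 40465552, so only 136 bases separate a gene with 6 and 4 counts from a gene with 2116 and 1740 counts. Per kb of annotated exon, *Il18r1* was 505 times *Il1rl1* in replicate 1 (95% interval for counting error 232 to 1377) and 623 times in replicate 2 (243 to 2287). Most of the stretch between them is printed first below, from the base after the last one that RefSeq gives to *Il1rl1*. The other sequences precede a further start site within *Il18r1* and the first start sites of *Il18rap*, *Il1rl1* and *Il12rb2*, and they are shown to set the promoter regions of high and low members side by side. All are RefSeq sequence of GRCm38.p6 without annotated exon, 5′ to 3′ on the strand of the gene, and capitals mark the motifs described after them.

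Il18r1, chr1:40465419-40465551, plus strand: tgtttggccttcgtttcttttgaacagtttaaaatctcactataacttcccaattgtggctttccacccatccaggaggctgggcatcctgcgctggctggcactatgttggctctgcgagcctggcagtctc
Il18r1 inner start site, chr1:40465811-40465969, plus strand: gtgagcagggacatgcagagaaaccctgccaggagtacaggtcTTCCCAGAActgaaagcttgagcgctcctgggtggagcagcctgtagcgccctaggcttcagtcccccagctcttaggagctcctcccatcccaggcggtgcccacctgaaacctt
Il18rap, chr1:40515112-40515361, plus strand: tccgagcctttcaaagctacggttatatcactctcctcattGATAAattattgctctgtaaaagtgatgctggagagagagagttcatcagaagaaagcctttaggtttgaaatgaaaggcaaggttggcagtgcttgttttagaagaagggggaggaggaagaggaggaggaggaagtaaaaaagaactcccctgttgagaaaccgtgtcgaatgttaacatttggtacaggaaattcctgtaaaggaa
Il1rl1, chr1:40429320-40429569, plus strand: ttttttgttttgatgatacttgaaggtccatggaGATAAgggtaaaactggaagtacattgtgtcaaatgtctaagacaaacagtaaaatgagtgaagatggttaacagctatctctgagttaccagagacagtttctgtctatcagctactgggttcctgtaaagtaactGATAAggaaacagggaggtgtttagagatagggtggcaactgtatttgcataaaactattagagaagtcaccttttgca
Il12rb2, chr6:67376189-67376438, minus strand: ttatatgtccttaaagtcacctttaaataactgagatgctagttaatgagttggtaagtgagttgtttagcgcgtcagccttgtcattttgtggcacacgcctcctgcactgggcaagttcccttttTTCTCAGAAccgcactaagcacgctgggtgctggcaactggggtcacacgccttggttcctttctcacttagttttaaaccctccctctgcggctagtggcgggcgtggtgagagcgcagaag

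RefSeq entries were found for 6 of the 7 genes, with 10 start sites in all, and 250 bases before each start site were searched on both strands, or 133 bases at the first start site of *Il18r1*. The motifs were a STAT palindrome (TTCNNNGAA), a T-box core (TCACACC), a Runx core (TGTGGT) and a GATA core (GATAA). The STAT palindrome occurred 3 times, in 2 of the 10 windows. One match lay 123 to 115 bases before the start site of *Il12rb2*, and the window of the inner *Il18r1* start site at 40466006 held a pair, of which the copy in annotated exon is not printed. Among all 32851 windows of 250 bases, 7.02% held this palindrome and 0.317% held at least 2 copies. The share for 2 copies was taken for this motif alone, although the first *Il1rl1* window also held 2 GATA cores. The GATA core was found in 3 windows, namely both of *Il1rl1* and that of *Il18rap*, against 22.6% of all windows. The Runx core was found in 2 windows, of *Il1rl2* and of the second *Il1rl1* start site, against 14% of all windows, and the T-box core in 0 of 10 against 3.33%. These are matches of letters and do not show binding.

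**Figure D2:**
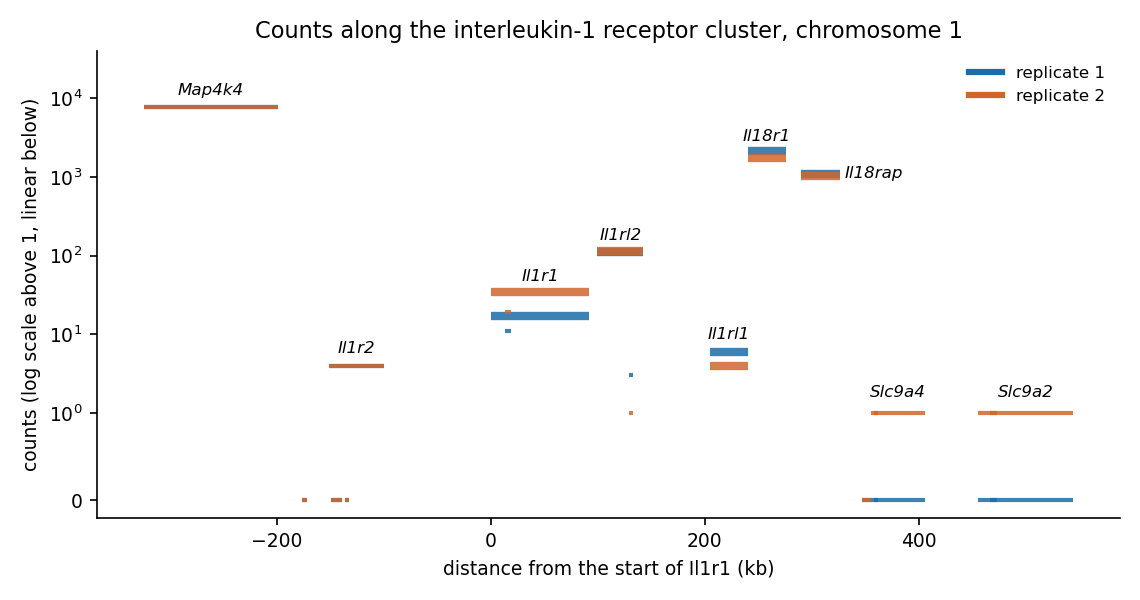
Counts of the 17 annotated genes of the cluster and its flanks of 200 kb, drawn as bars over the extent of each gene at the height of its count in each library, by distance in kb from the start of *Il1r1*, on an axis that is logarithmic above 1 and linear below. Thick bars are the receptor genes described here, thin bars the others, of which those without a symbol are not protein-coding, and bars of very short genes are widened to be visible. *Il18r1* and *Il18rap* stand at 1019 to 2116 counts between *Il1rl1* at 4 to 6 and *Slc9a4* at 0 to 1.

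The flanks of the cluster were also compared. *Map4k4*, a kinase gene upstream of it, had 7712 and 7784 counts, whereas *Il1r2*, which encodes the decoy receptor of IL-1 and lies between *Map4k4* and *Il1r1*, had 4 in each library. Downstream of *Il18rap*, the sodium-proton exchanger genes *Slc9a4* and *Slc9a2* each had 0 and 1 counts. High counts in this interval were thus found on *Map4k4*, *Il18r1* and *Il18rap*, and of the 17 annotated genes only these exceeded 113 counts in a library.

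The IL-18 receptor was examined first among the signalling pairs. *Il18r1*, which encodes the binding chain IL-18Rα, had counts of 2116 and 1740, which were 126 and 107 CPM. The Wilson 95% intervals, 121 to 132 CPM and 102 to 112 CPM, did not overlap, and replicate 2 was the lower library. *Il18rap*, which encodes the accessory chain IL-18Rβ, had 1079 and 1019 counts, equal to 64.5 and 62.7 CPM, with intervals of 60.8 to 68.4 and 59.0 to 66.7 CPM that overlapped. Per kb of exon, which allows genes of different length to be set side by side, *Il18r1* was at 24.2 ± 2.84 CPM per kb (SD, n = 2), above 85.4% of the 11833 protein-coding genes with at least 10 counts. *Il18rap* was at 9.42 ± 0.184 CPM per kb (SD, n = 2), above 63.4% of them. The binding chain thus exceeded its partner by 2.75 times in replicate 1 and 2.39 times in replicate 2, with a mean ratio of 2.57 ± 0.251 (SD, n = 2).

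Both chains of the IL-12 receptor were detected. *Il12rb1*, on chromosome 8 (70808449 to 70821424, plus strand), had 419 and 439 counts, or 25.0 and 27.0 CPM. *Il12rb2*, on chromosome 6 (67291318 to 67376188, minus strand), had 127 and 155 counts, or 7.59 and 9.54 CPM. Both genes were slightly higher in replicate 2, with Wilson intervals that overlapped between the libraries. Per kb of exon, *Il12rb1* was at 6.34 ± 0.341 and *Il12rb2* at 2.26 ± 0.364 CPM per kb (SD, n = 2), and the ratio of the shared to the IL-12-specific chain was 2.83 ± 0.305 (SD, n = 2). In counts without length, the ratio was 3.07 ± 0.330 (SD, n = 2). *Il12rb1* was the higher chain with each length tried, while the size of the ratio depended on the length taken for *Il12rb2*. Of its 3794 exon bases, 1519 are also exon of *Serbp1* on the opposite strand, a gene with 10536 and 10785 counts, and the strand setting of the counting is not given in the sources used here. Without the shared bases, *Il12rb2* was at 3.77 ± 0.606 CPM per kb and the ratio was 1.70 ± 0.183 (SD, n = 2). These values assume that no read on the shared bases was counted for *Il12rb2*. Reads of *Serbp1* counted there would instead make the level of *Il12rb2* too high, and neither case was tested. *Il23r*, which lies 46.7 kb from *Il12rb2* and encodes the partner of IL-12Rβ1 in the IL-23 receptor, had 8 and 7 counts. *Il12rb1* per kb was 31.7 times *Il23r* in replicate 1 (95% interval 16.0 to 74.0) and 38.0 times in replicate 2 (18.3 to 95.1).

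Next, the chains that pair with IL-1RAcP were compared. *Il1rap* itself had 342 and 334 counts, or 20.5 ± 0.0849 CPM (SD, n = 2), and 1.80 CPM per kb. *Il1rl2*, which encodes the binding chain of the IL-36 receptor, had 112 and 113 counts, or 6.69 and 6.96 CPM. It was the highest of the 3 binding chains in both libraries, and *Il1rap* was 1.83 and 1.77 times *Il1rl2* per kb. *Il1r1*, which encodes the signalling receptor of IL-1, had 17 and 34 counts, or 1.02 and 2.09 CPM. Its Wilson intervals, 0.634 to 1.63 and 1.50 to 2.92 CPM, overlapped, and *Il1rap* was 11.3 times *Il1r1* per kb in replicate 1 and 5.50 times in replicate 2. *Gm38070*, annotated within the introns of *Il1r1* on the same strand and sharing 0 exon bases with it, had 11 and 19 counts, also higher in replicate 2, and its part in the counts of *Il1r1* was not tested. *Il1rl1*, which encodes ST2, the IL-33 receptor in its membrane-bound and soluble forms, had 6 and 4 counts, equal to 0.359 and 0.246 CPM, with intervals of 0.164 to 0.782 and 0.0957 to 0.633 CPM. These forms cannot be told apart in counts per gene. *Il1rap* was 34.6 times *Il1rl1* per kb in replicate 1 (95% interval 15.7 to 94.9) and 50.7 times in replicate 2 (19.6 to 187).

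**Figure D3:**
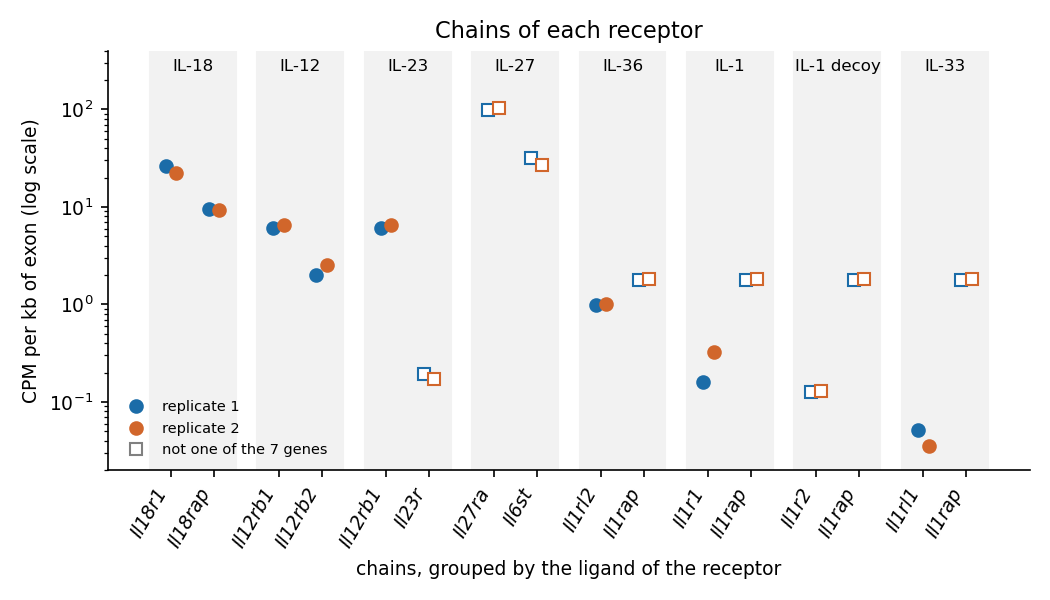
CPM per kb of exon on a log axis for the chains of each receptor, grouped by ligand, with 1 symbol per library and open squares for chains outside the 7 genes. Both chains of the IL-18 and IL-12 receptors lie at or above 2.00 CPM per kb in both libraries, while *Il23r*, *Il1r1*, *Il1r2* and *Il1rl1* lie under 0.33.

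Ordered by CPM per kb, the 7 genes ran *Il18r1*, *Il18rap*, *Il12rb1*, *Il12rb2*, *Il1rl2*, *Il1r1* and *Il1rl1*. No neighbours in this order had ranges over the libraries that overlapped, and the smallest step was 1.49 times, between *Il18rap* and *Il12rb1*. The order was the same by the length of the longest transcript. *Il1rl2*, at 1.00 ± 0.0272 CPM per kb (SD, n = 2), was above 21.7% of the protein-coding genes compared, *Il1r1* above 9.94% and *Il1rl1* above 0.769%. *Il12rb1* and *Il12rb2* were above 52.6% and 31.7%. Other than *Il12rb2*, the members share no exon bases with another annotated gene, and other genes' transcripts hold at most 0.32% of the 50-base stretches found in theirs.

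Replicate 2 was then set against replicate 1 for each gene in an exact binomial test (two-sided), adjusted by Benjamini-Hochberg over the 15949 genes whose summed count reached 10. This test compares libraries beyond counting error and not conditions. Of the 7 receptor genes, 1 differed at an adjusted p under 0.05, against 16.3% of all genes tested, and 0 of 7 differed at least 2-fold as well, against 1.52%, whereas 2 of 7 had an unadjusted p under 0.05, against 27.7%, and 1 of these, *Il1r1*, was at least 2-fold apart, against 3.27%. The gene was *Il18r1*, which was lower in replicate 2 with a log2 ratio of -0.24 (95% interval -0.33 to -0.15, exact binomial test, adjusted p = 7.88e-06). Depth bears on this call, since among the 903 genes with a count within 1.25 times that of *Il18r1*, 35.5% were called. The median absolute log2 ratio of these 903 genes was 0.0929. *Il18rap*, its neighbour and partner chain, had a log2 ratio of -0.04 (95% interval -0.16 to 0.08). The split of calls over all genes depended on the scaling, with 2146 higher and 450 lower in replicate 2 by totals, 812 and 876 by TMM library sizes, and 992 and 739 by DESeq2 size factors, and *Il18r1* was called lower by each. When a biological coefficient of variation of 0.1 was assumed in the exact test of edgeR, to allow for variation between mice, 0 of 7 were called, against 0.464% of all genes, and 1 of 7 had an unadjusted p under 0.05, against 5.17%. *Il1r1* had a log2 ratio of 1.04 (95% interval 0.16 to 1.98, exact binomial test, adjusted p = 0.0836) and did not pass. The median log2 ratio of the 7 genes was 0.06, and that of all genes tested was 0.08, while with TMM library sizes these were -0.02 and -0.0027.

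**Figure D4:**
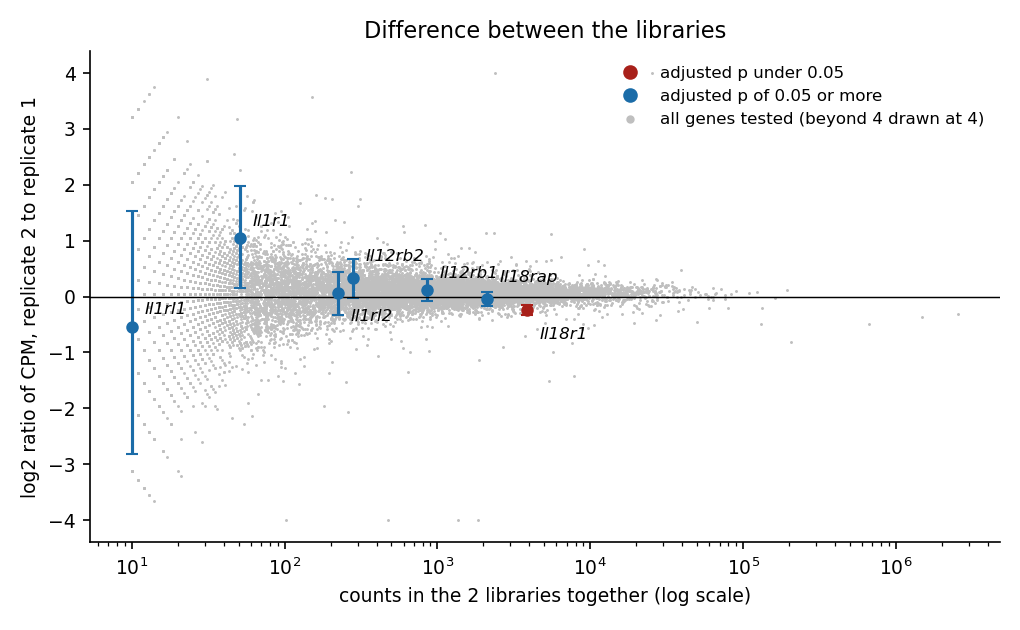
Log2 ratio of CPM in replicate 2 to replicate 1 against the counts of both libraries together on a log axis, with grey points for genes tested (those with 0 counts in a library are not drawn) and the 7 receptor genes with 95% intervals for counting error. *Il18r1*, in red at -0.24, is the only one of the 7 with an adjusted p under 0.05, and the intervals widen toward *Il1rl1* with its 10 counts.

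Other genes moved between the same libraries. *Stat4*, which encodes the transcription factor downstream of the IL-12 receptor, was at 60.7 and 90.6 CPM, higher in replicate 2 by 0.58 on the log2 scale (exact binomial test, adjusted p = 5.96e-21). Of the 8 genes listed for innate memory-like CD8 T cells, 5 were higher and 1 was lower in replicate 2 by totals and by TMM or DESeq2 scaling, with *Eomes* at 196 and 355 CPM and *Ly6c2* at 238 and 180 CPM. All 6 genes listed for NK cells were called higher in replicate 2, or 5 of 6 with TMM or DESeq2 scaling. Their summed level went from 186 CPM in replicate 1 to 247 in replicate 2. Most of it was *Prf1* at 106 and 130 CPM and *Klrk1* at 61.3 and 77.5 CPM. *Ncr1* had 45 and 112 counts and *Klra8* had 24 and 58. The part of NK cells in these levels was not tested. By edgeR at a biological coefficient of variation of 0.1, 2 of these 6 and 1 of the 8 innate memory-like genes were called. By totals 2146 of all 15949 genes tested were called higher and 450 lower, and edgeR called 0.464%. *Il18r1* moved in the opposite direction to the NK genes and the 5 higher genes and in the same direction as *Ly6c2*, and their part in its difference was not tested. Among the 12 marks of mature αβ T cells, 5 were called lower in replicate 2 and 1 higher by totals. With TMM scaling 9 were lower and 0 higher, and with DESeq2 scaling 7 and 0. Over all genes tested, 876 were lower and 812 higher with TMM, and 739 and 992 with DESeq2 scaling. By edgeR 0 of the 12 were called. *S1pr1*, a receptor for thymic egress, was at 318 and 227 CPM.

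The genes around the 7 receptors were described from lists of ligands, partners, inhibitors and signalling molecules. Ligands were almost absent from these cells. All 5 genes of the IL-12 family ligands were at or under 3 counts in both libraries, with *Il12b* and *Il23a* at 0 in each. Of 9 IL-1 family ligand genes, 7 were at or under 3 counts in both, *Il18* had 1 count in each and *Il33* had 0. *Il1f9*, which encodes IL-36γ, had 6 and 7 counts and *Il1a* had 2 and 8. A count of 0 allows levels up to the floor of 0.179 and 0.185 CPM.

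All 4 partner chains were above 3 counts in both libraries, with *Il23r* the lowest. *Il27ra* and *Il6st*, the chains of the IL-27 receptor, were at 354 ± 10.7 and 324 ± 35.3 CPM (SD, n = 2), so the shared chain gp130 (*Il6st*) was abundant. Per kb, *Il6st* was 0.289 ± 0.0401 of *Il27ra* (SD, n = 2). *Il6st* was lower in replicate 2 by the exact binomial test (log2 ratio -0.22, adjusted p = 1.48e-13), in the direction of *Il18r1*. Among the decoys and inhibitors, *Sigirr*, an inhibitory member of the IL-1 receptor family, was at 64.8 ± 2.08 CPM (SD, n = 2). *Il18bp*, which encodes the secreted inhibitor of IL-18, had 123 and 171 counts and was higher in replicate 2 (log2 ratio 0.52, exact binomial test, adjusted p = 0.0193), but was not called with TMM or DESeq2 scaling. *Il1r2*, *Il1rn*, *Il1rapl1* and *Il1rapl2* had at most 5 counts in a library. *Il1rapl1* and *Il1rapl2* were listed as members of the IL-1 receptor family, and no inhibitory part is assumed for them.

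Signalling molecules of both arms were detected. *Jak2*, *Tyk2* and *Stat4* had means from 75.7 to 131 CPM, and 2 of the 3, *Stat4* and *Jak2*, were higher in replicate 2 by the exact binomial test, of which *Stat4* alone was called with TMM or DESeq2 scaling. All 14 genes of the MyD88 arm were above 3 counts in both libraries, from 1.37 CPM for *Irak3*, an inhibitory kinase-like protein of the pathway, to 237 CPM for *Ikbkb*, a kinase of IκB. *Myd88* was at 75.7 and 77.9 CPM. In this arm 3 of 14 genes, *Irak1*, *Irak4* and *Tab2*, were called higher in replicate 2 (2 of 14 with TMM or DESeq2 scaling) and 0 lower. Over all 15949 genes tested, 2146 were called higher and 450 lower by totals. By edgeR at a biological coefficient of variation of 0.1, 0 of the 14 and 0 of the 3 JAK-STAT genes were called. The median log2 ratio of the 14 was 0.12 against 0.08 over all genes tested.

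**Figure D5:**
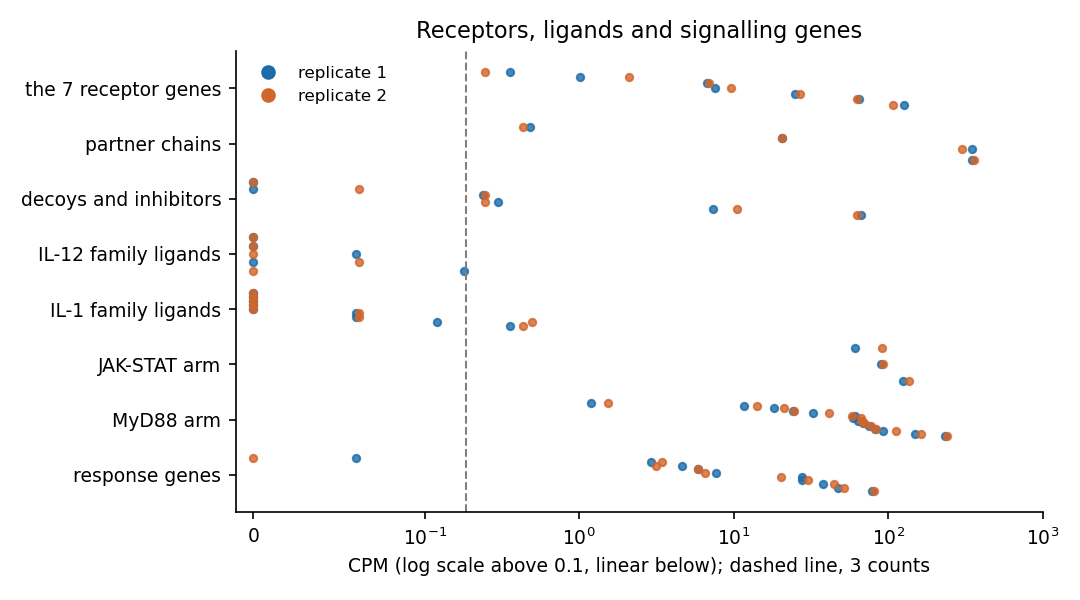
CPM of every gene in the lists of receptors, partners, inhibitors, ligands, signalling molecules and response genes, with 1 point per library, on an axis that is logarithmic above 0.1 and linear below. Ligands lie at or near the dashed line of 3 counts or under it, while the signalling arms reach a mean of 237 CPM.

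Genes known to respond to IL-12 and IL-18 spanned a wide range of levels. Per kb of exon, *Socs1* at 27.5 and *Hopx* at 27.3 CPM per kb were above 87.4% and 87.3% of the protein-coding genes compared, and *Ifng* at 3.01 CPM per kb was above 36.3%. *Ifng* had 78 and 51 counts, or 4.66 and 3.14 CPM, and its ratio between the libraries did not pass the exact binomial test (log2 ratio -0.57, adjusted p = 0.122). *Socs1*, a feedback inhibitor of cytokine signalling, was the highest of the 10 genes in CPM at 80.0 ± 1.71 CPM (SD, n = 2), and *Csf2* was the lowest with 1 and 0 counts. *Gzmb*, a granzyme gene, was lower in replicate 2 (27.6 and 20.4 CPM) and *Hopx*, a homeodomain cofactor gene of effector cells, was higher (38.1 and 44.5 CPM), and of the 9 genes tested these were the 2 called, with only *Gzmb* left under TMM or DESeq2 scaling. By totals 16.3% of all genes tested were called, and edgeR at a biological coefficient of variation of 0.1 called 0 of the 9. The median log2 ratio of the 9 was 0.04.

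Markers of other cells that carry these receptors were listed beside them. In bulk RNA, fewer cells of a type and less RNA per cell cannot be told apart. For type 17 cells, which are known for *Il1r1* and *Il23r*, 5 of 7 markers were above 3 counts in both libraries, *Il17a* was at 0 in both, and the summed levels were 18.4 and 22.5 CPM, of which *Maf* made up 15.2 and 19.3 CPM and was called higher in replicate 2 by totals but not with TMM or DESeq2 scaling. For group 2 innate lymphoid cells and mast cells, which are known for *Il1rl1*, 3 of 8 markers were above 3 counts in both, *Il5*, *Mcpt4* and *Fcer1a* were at 0 in both, and the sum was 13.9 and 13.0 CPM, mostly *Kit* with 157 and 130 counts and *Hpgds* with 64 and 70. Regulatory T cells can also carry ST2, and *Foxp3* was at 12.1 and 12.4 CPM in a list of helper and regulatory genes with all 6 above 3 counts and sums of 130 and 141 CPM. In this list *Ikzf2* made up 91.7 and 99.7 CPM and *Cd4* 0.717 and 1.66 CPM, and the sort took CD4- cells. For iNKT and other PLZF-positive cells, which are known to express IL-12 and IL-18 receptors, 6 of 7 markers were above 3 counts in both libraries. *Zbtb16* had 305 and 351 counts, *Klrb1c* was called higher in replicate 2 by totals alone, and the sum was 164 and 167 CPM. Most of this sum was *Plac8* at 57.1 and 55.1 CPM and *Gata3* at 47.9 and 45.9 CPM. *Il4* had 11 and 7 counts and *Il13* had 6 and 3. The part of each of these cell types in the levels of the receptors was not tested.

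Myeloid and dendritic markers, of cells that produce IL-12 and IL-18, were above 3 counts in both libraries for 3 of 10 genes, with *Cd14*, *S100a8* and *S100a9* at 0 and sums of 14.8 and 15.9 CPM, mostly *Csf1r* at 9.74 and 11.8 CPM. For B cells the number was 3 of 5, with sums of 13.6 and 15.5 CPM, mostly *Cd79b* at 11.7 and 14.0 CPM. For immature double-positive thymocytes it was 4 of 6, with *Ptcra* at 2 counts in each library and sums of 41.1 and 37.7 CPM, mostly *Cd1d1* at 25.5 and 22.2 CPM and *Dntt* at 13.4 and 13.0 CPM. Stromal and endothelial markers gave 4 of 8 and sums of 81.2 and 72.8 CPM, mostly *Pecam1*, which T cells can also express, and red cell markers 1 of 4 and 0.478 and 0.616 CPM.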

How the data were processed

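Poly(A) RNA of sorted CD4- mature thymocytes was sequenced as single-end reads of 50 bases. According to the submitters' processing notes, reads were mapped onto mm10 (GRCm38) with TopHat2 2.1.1 and counted with HTSeq 0.6.1, and the authors deposited raw counts per gene without normalization. The annotation and strand setting are not given in the sources used here. Replicates were taken from the library titles.

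Counts were divided by the total on genes, 16732644 and 16245849, without the summary lines that name no gene (59.4% and 58.8% of the uniquely aligned reads). Of 48321 symbols, 46394 were in GENCODE M21, which gave positions and exon lengths; promoter windows are from RefSeq. Only counting error is covered by the floor and by the 95% intervals (Wilson, Clopper-Pearson). Libraries were compared across genes by an exact binomial test (scipy 1.17.1) and by the exact test of edgeR 4.0.16, tested on simulated data. Members and gene lists were chosen with earlier results of these data known, and the genes named are the members, their cluster, and the extremes, called genes and defining markers of each list. Genes with a like pattern were not sought, since 2 libraries of 1 condition give none. Alternatives were TMM and DESeq2 1.42.0 scaling, totals that leave out 393 genes of mitochondrial origin or ribosomal RNA, other filters, other lengths and each replicate left out. Of the marker lists, 2 genes are not reported here and were left out of the sums and counts.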

Additional observations from a re-analysis of the deposited data

How the results depend on the processing

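No paired analysis was possible because the series holds 1 group. With totals that leave out mitochondrial and ribosomal RNA genes, levels rose by more than 1 SD to 30.4 CPM for *Il12rb1*, 9.98 for *Il12rb2*, 137 for *Il18r1*, 74.3 for *Il18rap* and 7.97 for *Il1rl2*, because the totals became smaller, and per kb to 7.40, 2.63, 28.4, 11.0 and 1.17. With the length of the longest transcript, levels per kb were 9.06 for *Il12rb1*, 2.86 for *Il12rb2*, 28.1 for *Il18r1*, 13.0 for *Il18rap*, 0.0570 for *Il1rl1* and 1.75 for *Il1rl2*. Ratios of chains then were 2.16 for *Il18r1* to *Il18rap*, 3.20 for *Il12rb1* to *Il12rb2*, 49.8 for *Il12rb1* to *Il23r*, and 19.3, 82.4 and 2.60 for *Il1rap* to *Il1r1*, *Il1rl1* and *Il1rl2*. Without exon bases shared with another gene, a setting chosen after seeing the data, *Il12rb2* was at 3.77 CPM per kb, and the ratios were 1.70 for *Il12rb1* to *Il12rb2*, 6.59 for *Il18r1* to *Il12rb2* and 1.89 for *Il1rap* to *Il1rl2*. Scaling by TMM or DESeq2 size factors and leaving out a replicate moved no level or ratio by more than 1 SD. This is no test of stability. With 2 libraries, either value alone always lies within 1 SD of the mean, and a ratio within a library does not change with scaling. For levels, both scalings raised replicate 1 and lowered replicate 2, so the mean of the 2 libraries was held nearly fixed by construction.

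Of all genes tested, 2596 differed between the libraries, against 1688 with TMM library sizes and 74 by edgeR at a biological coefficient of variation of 0.1. Of the 7 members, these settings called 1, 1 and 0. By edgeR *Il18r1* (adjusted p = 1), *Stat4* (0.416) and *Il6st* (1) were no longer called, whereas *Eomes* still was. The log2 ratio of *Il1rl2*, 0.06 by totals, was -0.023 with TMM and -0.0062 with DESeq2 size factors. The cause of these shifts was not tested. Depth limits *Il1rl1*, whose 10 counts in all leave a log2 ratio anywhere from -2.81 to 1.53.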
